A study of Homo sapiens with 8 samples.

Results

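H3K27ac, the acetylated histone H3 that marks active promoters and enhancers, was examined at 40 heat shock and chaperone genes in A549 cells. Peaks of all 6 libraries were merged into 49186 regions, and the 77 regions that overlapped 1 of these genes or the 5 kb on either side of it (GENCODE annotation, GRCh37) were kept. Each of the 40 genes had at least 1 region and none had more than 5. A549 is a human lung adenocarcinoma line in which a KEAP1 mutation keeps the transcription factor NRF2 active. The cells received either a control siRNA or an siRNA against NRF2 and were harvested for chromatin immunoprecipitation 48 h later, in 3 control siRNA and 3 NRF2 siRNA libraries from independent experiments. NRF2 siRNA replicate 1 was made with siRNA 28, and replicates 2 and 3 with siRNA 30. All libraries come from a single cell line, an siRNA lowers a transcript without deleting the gene, and no heat or other stress treatment is named for either group. The comparison therefore addresses whether the chromatin of a proteotoxic stress program depends on NRF2, a regulator of the antioxidant program, in unstressed cells.

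Chaperones bind unfolded or partly folded proteins and help them reach or regain their structure. In the heat shock response, HSF1 is held inactive by chaperones, is released when misfolded proteins occupy them, and then binds heat shock elements, which are inverted repeats of GAA and TTC, in the promoters of HSP70, HSP90, J protein and small heat shock protein genes. Many family members are also transcribed without stress, because HSP70, HSP90, the mitochondrial HSP60 and the CCT ring serve folding in every growing cell. NRF2 acts on another set of sites, antioxidant response elements, as a partner of small MAF proteins.

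Peak lists held from 27941 to 41571 peaks in the control siRNA libraries and from 23885 to 39108 in the NRF2 siRNA libraries. The lists differed in length and held no read counts, so a region was described by its percentile, the rank of its highest fold enrichment among all regions that the same library called, where 100 is the strongest. Peak names of replicate 1 of both groups lacked the flow cell identifier that replicates 2 and 3 carried, and replicate 1 was also the only pair with siRNA 28, so this batch and the siRNA cannot be told apart. By the study's own summary, replicate 1 of both groups was also sequenced less deeply than replicates 2 and 3. Results that rest on replicate 1 are therefore also given for pairs 2 and 3 alone. Of 5 epithelial markers, KRT8, KRT18, EPCAM and CDH1 had a called start in all 6 libraries and KRT19 in 0. The 5 lung lineage markers (NKX2-1, SFTPB, SFTPC, SFTPA1 and NAPSA) and the 6 annotated markers of leukocytes, endothelium and muscle were called in 0 libraries. The start region of NFE2L2, the gene of NRF2, was called in all 6 libraries, and its rank score changed by -0.20 with NRF2 siRNA (limma adjusted p = 0.602), which is no check of the knockdown because an siRNA acts on the transcript.

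Promoter sequences, from 250 bases before to 50 after the start, were matched in RefSeq (GRCh38.p14) for 37 of the 40 genes. All 37 were found once in GRCh37, and all 37 RefSeq starts lay inside a merged H3K27ac region. For 3 genes, HSP90AA1, DNAJB11 and DNAJB1, that region was not the start region described below, so the promoter searched was another one. A heat shock element of 3 units (GAANNTTCNNGAA, or TTCNNGAANNTTC on the other strand) was present in the promoters of HSPA6, HSPA8, DNAJA1 and DNAJB6, which was 10.8% of the matched members, against 0.49% of 35116 promoters in the table. The 2-unit form (GAANNTTC or TTCNNGAA), which the 3-unit form contains, was present in 12 members, or 32.4%, against 13.5% of all promoters. Only these promoter bases were searched for the shares. The wider start regions of HSP90AB1, STIP1, HSPB1 and HSPD1 with HSPE1 held 2 elements of 3 units each, outside the promoter bases. Other start regions, such as those of CCT2 and TCP1, held 0, and the share over all regions was not counted. The stretches below are shown because they carry a match to the heat shock element, the sequence that HSF1 binds. They run 5′ to 3′ along the gene with the element in capitals, 3 units in the first group and 2 units in the HSPA1A and HSPA1B pair.
HSPA6, bases -94 to -42 from the start: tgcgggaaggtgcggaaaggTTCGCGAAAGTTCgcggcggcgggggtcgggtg
HSPA8, bases -250 to -198: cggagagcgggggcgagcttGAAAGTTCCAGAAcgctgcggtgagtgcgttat
DNAJB6, bases -151 to -99: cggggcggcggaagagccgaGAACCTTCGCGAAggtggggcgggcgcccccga
HSPA1A, bases -126 to -79: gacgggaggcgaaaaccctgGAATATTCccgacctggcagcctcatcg
HSPA1B, bases -125 to -78: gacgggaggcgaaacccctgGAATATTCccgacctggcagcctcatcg
The last pair is nearly identical, as the 2 genes are a tandem duplication. HSPA8 has a second 3-unit element nearer to the start, and the element of DNAJA1 begins 3 bases after the first base of the transcript. A match is a description of the letters, and occupancy by HSF1 was not measured.

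Acetylation at the starts of these genes was common and strong. Each gene was given 1 start region, the region over an annotated transcript start with the highest mean percentile, and 2 gene pairs (HSPA1A with HSPA1L and HSPD1 with HSPE1) shared theirs, which left 38 start regions. Of these 38, 35 were called in all 6 libraries (92.1%), whereas 67.6% of 10021 start regions of all coding genes, chosen in the same way, were called in all 6. Counted over genes with or without a region, 40.4% of 20176 coding genes had a start region called in all 6. Over all 77 regions of the members, 50 were called in all 6 libraries (64.9%), against 34.2% of all 49186 regions. HSF2, HSPA6 and DNAJB6 were the genes whose start region missed a call, in the less deeply sequenced replicate 1 in each case, and the part of depth in these missing calls was not tested. The median percentile of the member start regions was 70.9, 76.8 and 84.5 in the control siRNA libraries 1, 2 and 3 and 66.6, 78.3 and 79.8 in the NRF2 siRNA libraries, against 61.9, 65.2 and 73.6 and then 60.3, 64.0 and 68.4 at all coding starts. Their median width was 2818.5 bp against 2064 bp. By role, the median of the 6 library medians was highest for HSP90 (89.2) and the mitochondrial chaperones (87.8), lay between 72.1 and 82.2 for the CCT ring, HSP70, co-chaperones, J proteins and small heat shock proteins, and was lowest for the endoplasmic reticulum chaperones (62.4) and the HSF factors (40.8). These are descriptions of level. Several start regions also held the start of another coding gene, so their rank need not be that of the member. Among them were those of DNAJB1 (TECR), DNAJB9 (PNPLA8 and THAP5), TCP1 (MRPL18), CCT3 (TSACC), CCT5 (ATPSCKMT), DNAJA1 (APTX), DNAJB2 (TUBA4A) and BAG1 (CHMP5). HSP90 and the HSF factors have 2 genes each, so their order rests on few regions.

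**Figure D1:**
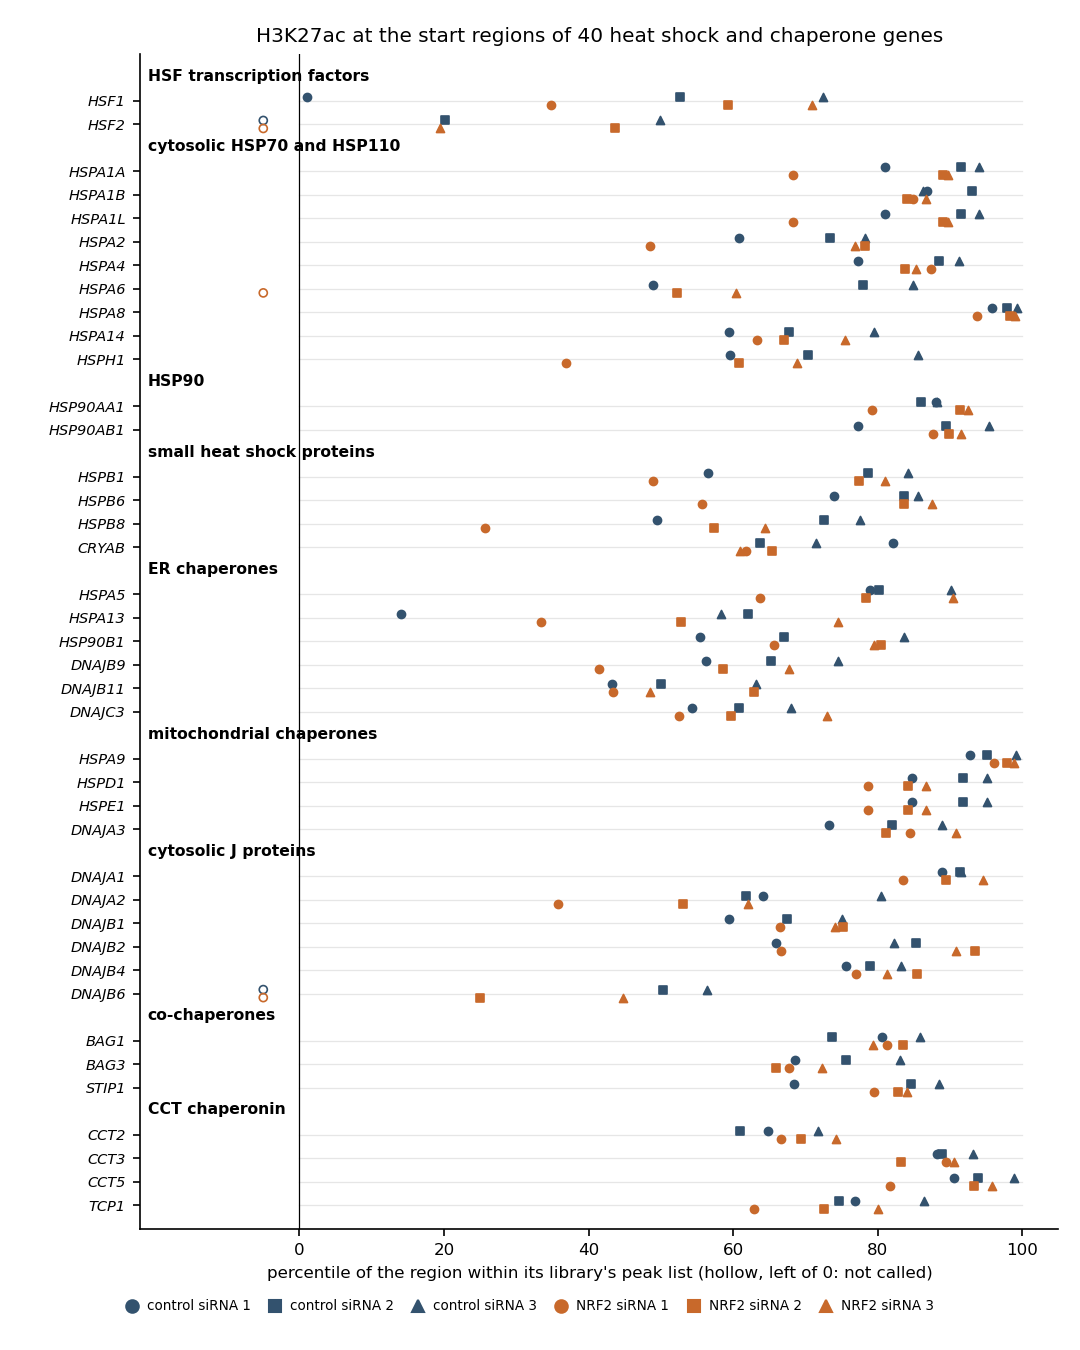
Percentile of the start region of each of the 40 genes within each library's peak list (x axis, 100 is the strongest), grouped by role, with control siRNA libraries in blue and NRF2 siRNA libraries in orange and a hollow symbol left of 0 where the region was not called. HSPA8 and HSPA9 sit at the right edge, at 92.7 or above in every library, blue and orange symbols intermingle for most genes, and hollow symbols occur at HSF2, HSPA6 and DNAJB6 in replicate 1.

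Of the heat shock factors, HSF2 was weakly marked and HSF1 was low in replicate 1 only. HSF1 (chr8:145514576-145516599, shared with the BOP1 start) ranked at percentiles 1.09, 52.7 and 72.4 in control siRNA replicates 1, 2 and 3 and at 34.8, 59.3 and 70.9 in the NRF2 siRNA replicates. HSF2 (chr6:122719904-122721608), which encodes a related factor, was not called in replicate 1 of either group and ranked at 20.2 and 49.9 in control siRNA replicates 2 and 3 and at 43.7 and 19.4 with NRF2 siRNA. The groups overlapped at both genes, and the libraries of 1 group spread widely, with an SD of 36.8 percentile units for HSF1 in the controls and 18.4 with NRF2 siRNA (n = 3 each).

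Among the cytosolic HSP70 genes, the constitutive member was the strongest. HSPA8 (chr11:122931681-122935265), the housekeeping HSC70, ranked at 95.8, 97.9 and 99.2 in the controls and at 93.8, 98.3 and 99.0 with NRF2 siRNA. Its level was thus near the top of every list and differed by less than the spread between replicates (score difference -0.01, SE 0.233). HSPA1A (chr6:31781442-31783626), the classical stress-inducible HSP70, shared its start region with HSPA1L and ranked at 81.0, 91.5 and 94.0 in the controls and at 68.3, 89.1 and 89.7 with NRF2 siRNA. HSPA1B (chr6:31785437-31795821), its near-identical neighbour, ranked at 86.9, 93.0 and 86.2 and then at 84.9, 84.1 and 86.6. The HSPA1A start region was thus well marked in cells given no heat shock. The HSPA1B region is 10385 bp wide and begins over the end of HSPA1A, and the HSPA1B start lies 10079 bp into it. Its rank is that of the strongest peak in the region and need not be that of the HSPA1B start. The groups overlapped at both regions. No library had a peak over most of the bodies of this pair, from 31783627 to 31785436 (1810 bp) and from 31795822 to 31797632 (1811 bp), and 91.6% and 91.5% of the 100-base windows in these gaps occur in both genes. The authors removed reads of mapping quality under 20, so reads from sequence shared by the pair may be missing there, and acetylation of the gene bodies could not be read.

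HSPA6, a strictly inducible HSP70 whose promoter carries the 3-unit heat shock element shown above, had the lowest score difference among the start regions. Its narrow region (chr1:161493739-161494447, 709 bp) ranked at 48.9, 78.0 and 84.9 in the controls, was not called in NRF2 siRNA replicate 1 and ranked at 52.2 and 60.4 in NRF2 siRNA replicates 2 and 3. Scores were lower in 3 of 3 pairs and the groups did not overlap by score, although they did by percentile among the libraries that called it. The fit without pairing did not pass the threshold (score difference -0.87, SE 0.305, limma adjusted p = 0.129), whereas the fit with the replicate number as a block did (adjusted p = 0.0258). In pairs 2 and 3 alone the difference was -0.74 (adjusted p = 0.0508). The gene resembles its neighbour HSPA7, and 33.9% of the 100-base windows of HSPA6 but 0 of 610 windows of its start region occur there too. HSPH1 (chr13:31734476-31737334), the HSP110 that releases nucleotide from HSP70, ranked at 59.6, 70.4 and 85.6 in the controls and at 36.8, 60.8 and 68.8 with NRF2 siRNA (score difference -0.35, limma adjusted p = 0.357). The remaining cytosolic genes HSPA2, HSPA4 and HSPA14 were called in all 6 libraries, at percentiles between 48.5 and 91.3, with score differences from -0.01 to 0.04.

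The HSP90 genes and the mitochondrial folding machine were strongly marked in every library. HSP90AA1 (chr14:102551811-102554822), the inducible cytosolic HSP90, ranked at 88.1, 85.9 and 88.1 in the controls and at 79.3, 91.4 and 92.6 with NRF2 siRNA. HSP90AB1 (chr6:44213259-44216252), the constitutive form, ranked at 77.2, 89.4 and 95.4 and then at 87.6, 89.9 and 91.6. Neither start region separated the groups. HSPD1 and HSPE1, which encode HSP60 and its lid HSP10 and are transcribed in opposite directions from 1 region (chr2:198362912-198367230), ranked at 84.7, 91.7 and 95.2 in the controls and at 78.6, 84.1 and 86.7 with NRF2 siRNA. This shared region was lower by score with NRF2 siRNA in 3 of 3 pairs and its scores did not overlap, yet the difference was small (-0.34, SE 0.200, limma adjusted p = 0.362). By percentile the groups overlapped. HSPA9, the mitochondrial HSP70, ranked between 92.7 and 99.1, and DNAJA3, its J partner, between 73.2 and 90.9.

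The small heat shock proteins, which hold unfolded proteins in oligomers, were marked at intermediate ranks. HSPB1 (chr7:75929186-75937475), or HSP27, ranked at 56.6, 78.7 and 84.2 in the controls and at 48.9, 77.5 and 81.0 with NRF2 siRNA. HSPB8 (chr12:119615692-119619174), which works with BAG3 in the autophagy of damaged proteins, ranked at 49.5, 72.6 and 77.5 and then at 25.6, 57.3 and 64.4. The scores of HSPB8 were lower in all NRF2 siRNA libraries than in any control library, by 0.32 on average (SE 0.200, limma adjusted p = 0.386). By percentile the groups overlapped at HSPB8. CRYAB (chr11:111792946-111797676), or alpha-B crystallin, ranked at 82.1, 63.7 and 71.5 and then at 61.8, 65.4 and 61.0. This region holds an upstream start of CRYAB together with that of C11orf52, and no merged region covered the start of the canonical CRYAB transcript at 111782494. HSPB6 ranged from 55.8 to 87.5.

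The chaperones of the endoplasmic reticulum, which belong to the unfolded protein response, spread over a wide range of ranks, with HSPA5 the highest. HSPA5 (chr9:128002921-128007560), or BiP, ranked at 78.9, 80.2 and 90.2 in the controls and at 63.8, 78.4 and 90.5 with NRF2 siRNA. HSP90B1 (chr12:104322689-104325622), or GRP94, ranked at 55.4, 67.1 and 83.7 and then at 65.6, 80.5 and 79.5. DNAJB9 (chr7:108209119-108211173), a J protein that acts on BiP, ranked at 56.3, 65.2 and 74.6 and then at 41.5, 58.5 and 67.8. The groups overlapped at HSPA5 and HSP90B1 (score differences -0.08, SE 0.219, and 0.22, SE 0.208), while at DNAJB9 the scores did not overlap but differed by only -0.14 (SE 0.188, limma adjusted p = 0.720). By percentile the groups overlapped at DNAJB9. HSPA13, DNAJB11 and DNAJC3 ranged from 14.1 to 74.5 over the 6 libraries. The canonical start of DNAJB11 lay in a second region that only replicate 3 of each group called, at 47.4 and 31.6.

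Among the cytosolic J proteins, which bring substrates to HSP70, DNAJB1 (chr19:14626665-14633588, shared with a TECR start), the HSP40 partner of inducible HSP70, ranked at 59.5, 67.5 and 75.1 in the controls and at 66.4, 75.2 and 74.1 with NRF2 siRNA. Of the co-chaperones, BAG3 (chr10:121410090-121419100) ranked at 68.6, 75.6 and 83.1 and then at 67.8, 66.0 and 72.2. STIP1 (chr11:63952112-63954499), or HOP, the adaptor between HSP70 and HSP90, ranked at 68.5, 84.6 and 88.5 and then at 79.5, 82.8 and 84.1. None of these 3 starts separated the groups past the threshold, although the scores of DNAJB1 did not overlap and were higher with NRF2 siRNA (0.18, adjusted p = 0.629). By percentile the groups overlapped at DNAJB1. In the CCT ring, which folds actin and tubulin, CCT2 (chr12:69978705-69980056) ranked at 64.8, 61.0 and 71.7 and then at 66.6, 69.3 and 74.3. TCP1 (chr6:160209722-160212468), its founding subunit, ranked at 76.9, 74.6 and 86.5 and then at 62.8, 72.6 and 80.0. CCT3 and CCT5 were stronger, between 81.7 and 98.8 in all libraries. DNAJA1, DNAJA2, DNAJB2, DNAJB4 and BAG1 were called at their start regions in all 6 libraries, between 35.8 and 94.5, and DNAJB6 in replicates 2 and 3 only, at no more than 56.4.

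To compare the groups, the regions called in at least 3 of 6 libraries were ranked within each library, with uncalled regions tied at the bottom. The ranks were expressed as normal scores. A score of 0 is the middle of these regions in a library, called or not, whereas a percentile counts called regions only. Scores therefore depend on how many regions a library called, and groups that overlap by percentile can be apart by score. This was so, for example, at the starts of HSPA6, HSPB8, HSPD1 with HSPE1, DNAJB9 and DNAJB1. Scores were compared with limma across all 32673 regions called in at least 3 libraries, 67 of them at member genes. The p-values were adjusted by the Benjamini-Hochberg method (threshold 0.05). At the 38 start regions, 0 passed the threshold, with adjusted p-values from 0.129 to 0.985, and 1 had an unadjusted p under 0.05 (HSPA6). With the replicate block 1 passed, HSPA6, and the next adjusted p was 0.218. Of 10883 tested regions at the starts of all coding genes, not limited to 1 per gene, 156 passed lower and 49 higher. With an unadjusted p under 0.05 there were 830 and 431, and with the block 337 and 141 passed. Calls were thus rare at coding starts in general, and few calls are no trait particular to the member starts. The start region was chosen by its mean over all 6 libraries, so a region that fell was less likely to be chosen. Chosen by the control libraries alone, an alternative added after the data were seen, the region of DNAJB4 was another one and the counts were 1 (DNAJB4) and, with the block, 2. Score differences at the starts ranged from -0.87 to 0.37 with SE from 0.188 to 0.316, and 37 of 38 lay within 0.5 score units of 0. With 3 libraries a group, a start region that did not pass is not shown to be unaffected. Over all 67 tested regions, 33 had a lower and 34 a higher mean score with NRF2 siRNA, and the median difference was 0.0021, against 0.0164 over all regions. In the 3 pairs the median was 0.13, -0.04 and -0.11.

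Among all tested member regions, 3 passed the threshold lower and 1 higher with NRF2 siRNA, and 6 lower and 4 higher had an unadjusted p under 0.05 (8.96% and 5.97%, against 10.7% and 11.9% of all tested regions). The calls were 4.48% lower against 3.39% of all tested regions, and 1.49% higher against 2.01%, so the shares were near the background. With the replicate block the counts were 4 lower and 3 higher (5.97% and 4.48%, against 6.62% and 5.72% of all regions). Scores of the groups did not overlap in 12 regions on the lower side and in 6 on the higher side (17.9% and 8.96%), against 13.6% and 14.6% of all regions. Of all 77 regions, 2 were called in all 3 control and 0 NRF2 siRNA libraries, at DNAJA2 and BAG3 (2.6%, against 2.27% of all regions), and 1 in the reverse pattern, CCT5 (1.3%, against 0.83%). These 3 passed the filter only through the group in which they were called, so that they had to differ, and the size of their difference depends on the rank given to uncalled regions. With no filter on the number of libraries, they and DNAJB4 again passed the threshold. Uncalled regions were tied at the bottom there too, so for these 3 regions this is no separate check.

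**Figure D2:**
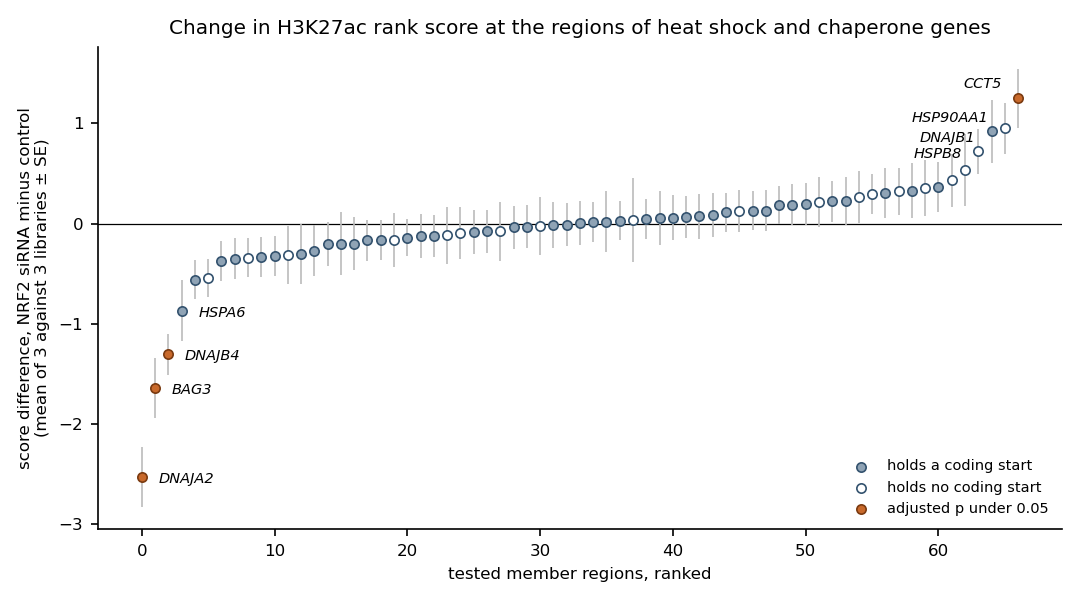
Difference in rank score, NRF2 siRNA minus control siRNA, with its standard error (y axis) for the 67 tested regions of heat shock and chaperone genes in order of size (x axis), with regions past the threshold in orange. Most regions lie close to 0, and the regions at DNAJA2, BAG3 and DNAJB4 (-2.53, -1.64 and -1.30) stand at the lower end and that at CCT5 (1.25) at the upper end.

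The largest fall lay upstream of DNAJA2, which encodes a cytosolic J protein of the HSP40 class. The intergenic region chr16:47009652-47011454 lay 2067 bp from the DNAJA2 start. The region ranked at 85.0, 83.4 and 85.9 in the control libraries and was not called in any NRF2 siRNA library. Its score fell by 2.53 (SE 0.299, limma adjusted p = 0.00677, lower in 3 of 3 pairs), and in pairs 2 and 3 alone by 2.78 (adjusted p = 0.00609). The adjusted p ranged from 0.00034 to 0.0504 over 15 other settings and passed the threshold in 14, all but the one without control siRNA replicate 2. The region passed the filter only through its control calls, so these p-values restate the calls and are no separate evidence for the fall. The promoter region of DNAJA2 (chr16:47006259-47008633) was called in all 6 libraries, at 64.1, 61.8 and 80.4 in the controls and at 35.8, 53.0 and 62.03 with NRF2 siRNA, a score difference of -0.37 (adjusted p = 0.318).

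A region in an intron of BAG3, the co-chaperone that links HSP70 to small heat shock proteins, behaved likewise. The region chr10:121433465-121435721, in the last part of the gene, ranked at 36.0, 58.9 and 64.9 in the controls and was called in 0 of 3 NRF2 siRNA libraries. Its score fell by 1.64 (SE 0.297, adjusted p = 0.0197), and by 2.03 in pairs 2 and 3 (adjusted p = 0.00675). The call was lost without control siRNA replicate 2 or 3 or NRF2 siRNA replicate 2 or 3 (adjusted p = 0.0814, 0.0854, 0.0918 and 0.0522). This region too passed the filter only through its control calls, so its p-values are no separate evidence for the fall. The BAG3 promoter and the 2 other large BAG3 regions, over a coding exon and over the end of the gene, were called in all 6 libraries, with score differences of -0.17, -0.12 and -0.08 (adjusted p from 0.693 to 0.914).

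DNAJB4, a J protein related to DNAJB1, had 2 start regions, and the one over its canonical start fell while remaining called. The region chr1:78465667-78473499 holds the start of the Ensembl canonical transcript at 78470623 and ranked at 94.9, 95.1 and 94.6 in the controls and at 52.6, 55.2 and 67.8 with NRF2 siRNA. The mean percentile was 94.9 ± 0.234 in the controls and 58.5 ± 8.10 with NRF2 siRNA (SD, n = 3 each), and no library of one group reached the range of the other. The score difference was -1.30 (SE 0.206, limma adjusted p = 0.0131, lower in 3 of 3 pairs), and -1.34 in pairs 2 and 3 (adjusted p = 0.0119). Without control siRNA replicate 2 or 3 or NRF2 siRNA replicate 2 the adjusted p was 0.0656, 0.0565 and 0.0744. The other start region of the gene (chr1:78441415-78451336), shared with FUBP1 and GIPC2, ranked at 75.6, 78.9 and 83.2 and then at 77.0, 85.4 and 81.3 with a score difference of 0.13 (adjusted p = 0.755). This second region had the higher mean percentile over all libraries and is the one that stands for DNAJB4 in the counts of start regions above. Of 40 members, 39 had their canonical start in a merged region, 35 of these in a region called in all 6 libraries, and DNAJB4 was the only one whose canonical start region passed the threshold.

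**Figure D3:**
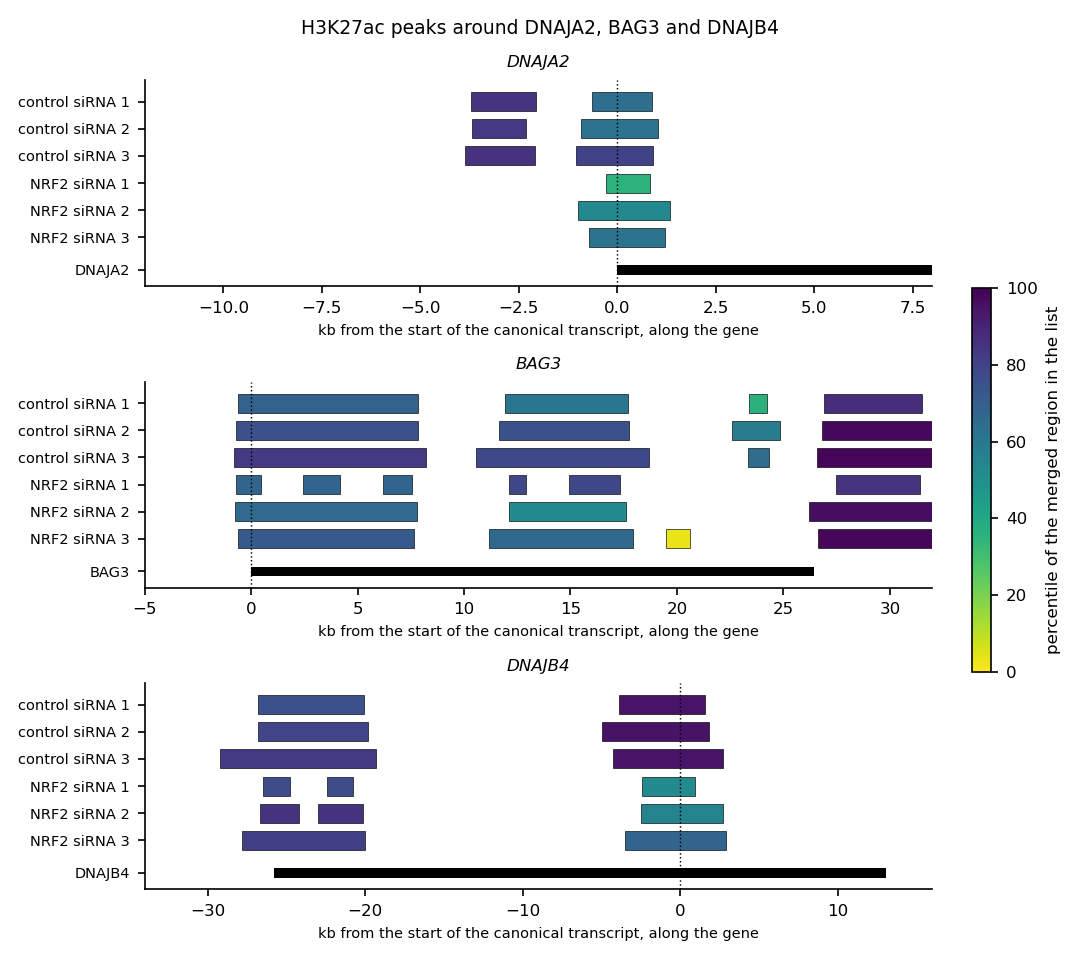
Peaks of each library (rows) around DNAJA2, BAG3 and DNAJB4, in kb from the canonical start along the direction of the gene, coloured by the percentile of the merged region in the library's list, with the gene as a black bar. The peak just upstream of the DNAJA2 start and the small peak in the intron near the end of BAG3 are present in the 3 control rows only, and the peaks at the DNAJB4 start are dark (94.6 or above) in the controls and lighter (67.8 or below) with NRF2 siRNA.

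The 1 region that rose lay just past the end of CCT5, a subunit of the CCT ring. The intergenic region chr5:10266588-10268631 was called in 0 of 3 control libraries and ranked at 2.61, 37.7 and 31.9 in the NRF2 siRNA libraries. It was weak wherever it was called. Its score rose by 1.25 (SE 0.294, limma adjusted p = 0.0430), and by 1.44 in pairs 2 and 3 (adjusted p = 0.0192). The call was lost without control siRNA replicate 2 or 3 (adjusted p = 0.129 and 0.144) and without NRF2 siRNA replicate 1, 2 or 3 (0.0739, 0.158 and 0.0630). With equal list lengths or at a q-value of at most 1e-05 the CCT5 region was called in fewer than 3 libraries and was not tested. Only its NRF2 siRNA calls took the region past the filter, so its p-values are no separate evidence for the rise. The CCT5 promoter (chr5:10248756-10251650) had a score difference of -0.27 (adjusted p = 0.583).

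With the HSPA6 start, 5 further regions complete the 5 lowest and the 5 highest differences. The region chr6:31773851-31775511, within 5 kb of HSPA1L but over the start of the splicing gene LSM2, ranked at 71.3, 77.4 and 85.2 in the controls and at 28.9, 57.1 and 71.0 with NRF2 siRNA (-0.56, adjusted p = 0.131). The LSM2 region passed only with the replicate block and equal list lengths together (-0.69, adjusted p = 0.0405, and 0.0795 with the block alone). An intronic region of the long HSP90AA1 transcript (chr14:102589995-102593760) ranked at 19.8, 15.4 and 46.2 and then at 66.3, 54.9 and 70.3. This HSP90AA1 region was higher in 3 of 3 pairs, by 0.95 (SE 0.254), and passed the threshold with the replicate block (adjusted p = 0.0168) but not without it (0.0634) or in pairs 2 and 3 (0.0556). The alternative start of DNAJB1 that it shares with TECR (chr19:14638615-14641340) was not called in control siRNA replicate 1, ranked at 28.6 and 51.4 in control siRNA replicates 2 and 3 and ranked at 8.21, 80.4 and 64.1 with NRF2 siRNA. The score difference at this DNAJB1 region was 0.92 (SE 0.318), again past the threshold with the block (adjusted p = 0.0367) and not without it (0.125) or in pairs 2 and 3 (0.074). With equal list lengths and no block, both the HSP90AA1 and the DNAJB1 region passed (adjusted p = 0.0238 and 0.0457). The HSP90AA1 region also passed without the block under the trend and robust options of limma (adjusted p = 0.0415). An intronic HSPB8 region (chr12:119613857-119614523) was called in 1 control library, at 8.61, and in 2 NRF2 siRNA libraries, at 21.4 and 33.4 (0.72, adjusted p = 0.0969, and 0.0271 in pairs 2 and 3 alone). This HSPB8 region lay upstream of the canonical start at 119616736, within the annotated gene that begins at 119609360. A region past the end of HSPA4 (chr5:132446358-132448423) was called in control siRNA replicate 2 at 24.2 and in NRF2 siRNA replicates 2 and 3 at 17.3 and 34.3 (0.53, adjusted p = 0.429). Of the 4 regions with higher scores in this group, 0 held the canonical start of the member gene.

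Member genes also had strong regions away from their starts, and the 3 given first here and a weaker one near DNAJA1 were chosen after their values were seen. The region chr7:75919595-75929040, 2950 bp upstream of the HSPB1 start, ranked between 93.8 and 98.4 in all 6 libraries, above the HSPB1 start region in each. It adjoins that start region, which begins at 75929186, and merging peaks within 500 bp joins the 2 regions. The intermediate rank of HSPB1 above thus depends on keeping them apart. The region chr19:14611602-14623348, downstream of DNAJB1, ranked between 89.6 and 95.9, again above the DNAJB1 start. Neither separated the groups (score differences 0.13 and -0.09). A region past the end of HSPA1B (chr6:31801278-31804811) ranked at 88.8, 88.8 and 93.1 in the controls and at 79.0, 82.2 and 83.7 with NRF2 siRNA, and its scores did not overlap (-0.34, adjusted p = 0.339). A region downstream of DNAJA1 in the UTR of SMU1 (chr9:33042164-33044871) ranked at 57.1, 67.2 and 72.0 and then at 21.3, 41.4 and 50.3. The DNAJA1 neighbour did not pass the threshold (-0.54, adjusted p = 0.132), except when regions called in all 6 libraries were tested alone (-0.92, adjusted p = 0.0400) and with the replicate block and equal list lengths (-0.74, adjusted p = 0.0367).

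**Figure D4:**
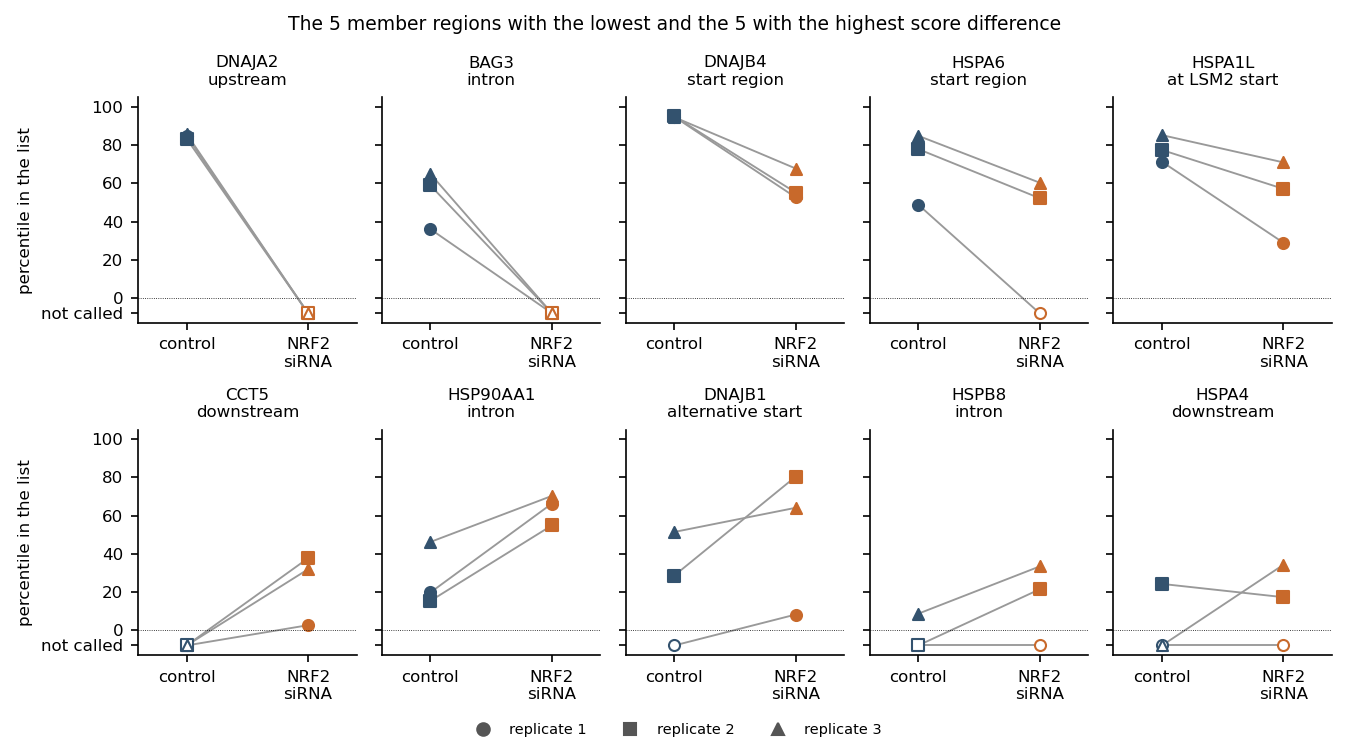
Percentile of the 5 member regions with the lowest (top row) and the 5 with the highest (bottom row) score difference in each library, with lines joining control siRNA (blue) and NRF2 siRNA (orange) libraries of the same replicate number and hollow symbols where a region was not called. At DNAJB4 the 3 control symbols coincide near 95 and the 3 NRF2 siRNA symbols lie between 52.6 and 67.8, and at HSPA4 symbols of both groups are hollow in replicate 1.

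The regions were searched for the 9-letter core of an NRF2 and small MAF site, TGACTCAGC or TGAGTCAGC on either strand, which was chosen after a shorter pattern (TGACNNNGC or TGAGNNNGC) had been found in 85.4% of all tested regions and 91.0% of the tested member regions. The core was present in 14 of 67 tested member regions (20.9%), against 15.1% of 32649 tested regions on the chromosomes of the assembly. The sites in the DNAJA2, BAG3 and HSPA6 regions are shown because 2 of these regions fell and the third had the lowest difference among the starts. The core is in capitals, on the strand named, with 15 bases on either side in GRCh37.
DNAJA2 upstream region, chr16:47010665-47010703, minus strand: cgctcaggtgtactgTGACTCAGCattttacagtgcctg
BAG3 intron, chr10:121435197-121435235, plus strand: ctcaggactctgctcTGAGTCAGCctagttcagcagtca
HSPA6 promoter, chr1:161494176-161494214, plus strand: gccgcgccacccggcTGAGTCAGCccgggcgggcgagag
The DNAJA2 site lay 131 bp from the centre of its region and the BAG3 site 623 bp from the centre of its own. On the opposite strand of HSPA6 a second, overlapping match was found. Of regions of a like width, 9.36%, 10.5% and 14.1% held the core for DNAJA2, BAG3 and HSPA6. The DNAJB4 region that fell held 0 cores, as did the CCT5 region that rose. The core was also present in regions that did not pass the threshold, such as the starts of HSPA9, HSP90AB1 and HSPB1. Within BAG3 it was also present at the start and over the end of the gene, with score differences of -0.17 and -0.08. At the NOTCH3 enhancer the paper names a conserved motif for NRF2 and FOSL2 together. A match to the core therefore need not be a site of NRF2. Binding of NRF2 or FOSL2 was not measured in these data.

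Set against the antioxidant genes, the heat shock and chaperone regions had few calls. A list of 30 antioxidant genes, among them glutathione, thioredoxin, heme and NADPH genes, had 96 regions, 68 of them tested and 0 shared with the members. Of these 68, 12 were lower (17.6%) and 1 higher (1.47%), 52 had a lower mean score, and the median difference was -0.40, against 3 lower, 1 higher, 33 with a lower mean score and a median of 0.0021 at the 67 regions of the members. With the replicate block 19 antioxidant regions were lower and 1 higher (27.9% and 1.47%). In the 3 pairs the antioxidant median was -0.42, -0.45 and -0.49, whereas that of the members changed sign between pairs, as did that of all coding starts (0.07, -0.04 and -0.14) and of a further list of related chaperone genes (0.09, -0.09 and -0.11). The largest antioxidant fall was at TXN, thioredoxin, which ranked at 98.8, 99.4 and 99.4 in the controls and at 62.7, 81.9 and 82.5 with NRF2 siRNA (-1.62, adjusted p = 0.00677). The next was at AKR1C1, an aldo-keto reductase, at 59.3, 50.7 and 51.4 in the controls and not called with NRF2 siRNA (-1.59, adjusted p = 0.0289). This AKR1C1 region passed the filter only through its control calls, so its p-value restates the calls and is no separate evidence. The antioxidant list was chosen with earlier results of these libraries known, so its direction is no independent evidence. Of this list of 47 related chaperone genes (other J proteins, cofactors of HSP70 and HSP90, folding factors of the endoplasmic reticulum, and prefoldin and CCT subunits), 75 regions were tested, of which 2 were lower (2.67%, at UNC45A and HSF4, named after their values were seen) and 0 higher by limma. The UNC45A region was called in 3 control and 0 NRF2 siRNA libraries, so its p-value too only restates the calls. In this list 6 were lower and 3 higher at an unadjusted p under 0.05, 3 were lower and 1 higher with the block, and the median was -0.08. At the starts of all coding genes the median was -0.05.

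**Figure D5:**
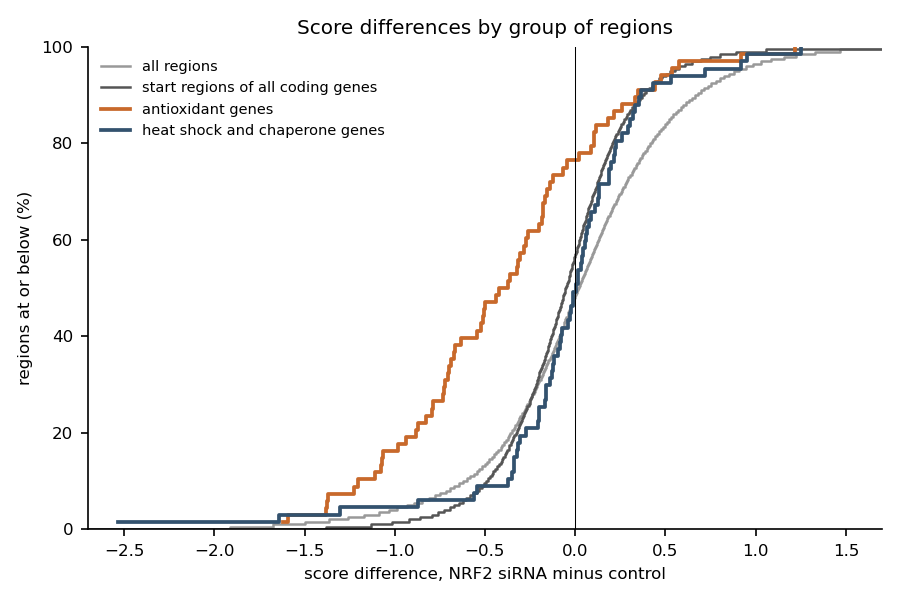
Share of regions (y axis, percent) whose score difference, NRF2 siRNA minus control siRNA (x axis), is at or below a given value, for all tested regions, the start regions of all coding genes, the 68 antioxidant regions and the 67 heat shock and chaperone regions. The antioxidant curve lies to the left, with a median of -0.40, and the heat shock and chaperone curve crosses 0 near its middle (median 0.0021), between that of all coding starts and that of all regions.

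Whether the 2 siRNAs against NRF2 differed in effect was tested in the same scores, as the change in the pair with siRNA 28 minus the average over both pairs with siRNA 30. At member regions 0 of 67 differences passed the threshold (limma, adjusted p from 0.280 to 0.995, 4 with an unadjusted p under 0.05), and over all 32673 regions 0 passed (0.0%), with 5040 at an unadjusted p under 0.05. When regions called in all 6 libraries were tested alone, 3 of 50 member regions passed (6.0%, against 6.64% of all such regions), at the HSF1 start (1.96, adjusted p = 0.0153), in BAG3 (1.48, adjusted p = 0.0367) and in DNAJC3 (-1.32, adjusted p = 0.0450). The HSF1 start is the region that ranked at 1.09 in control siRNA replicate 1. With 1 pair for siRNA 28, the siRNA and the batch cannot be told apart.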

How the data were processed

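Chromatin of A549 cells was immunoprecipitated for H3K27ac in 3 control siRNA and 3 NRF2 siRNA libraries, and the 2 input samples were not analysed here. Per the study's methods, the authors mapped reads with Bowtie2 2.2.6 against hg19, removed those of mapping quality under 20, called broad peaks in each library separately with MACS2 2.1.0.20151222 and removed blacklisted regions. Which input served as background is not given in the sources used here. The deposited lists hold, per peak, a fold enrichment (a ratio), −log10 p-values and −log10 q-values, and a display score that was not used. They hold no read counts, so no counting interval is given. The study's reporting summary lists read totals for each library, with fewer reads in replicate 1 of both groups than in replicates 2 and 3, and scores were not corrected for depth.

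Peaks overlapping by at least 1 bp were merged (Python 3.11.15, scipy 1.17.1). A region took the highest fold enrichment of its peaks in a library, ranked within the list. Normal scores of regions called in at least 3 of 6 libraries were compared with limma 3.58.1 (R 4.3.3), and the code was tested on simulated data, where smaller shifts were recovered less often than larger ones. Percentiles in every library were printed by rule for the start regions of a fixed list of members, for regions past the threshold and for the 5 lowest and 5 highest differences, with the 2 largest antioxidant falls. Promoter regions set beside a called region were added after their values were seen. Deviations from the group means correlated between libraries of the same replicate number, taken from the sample titles (r = 0.398, 0.199 and 0.363 over 32673 regions). Between libraries of different numbers r ranged from -0.383 to 0.107. The numbers were taken to pair the libraries, and the block was an alternative fit. Replicate 1 of both groups also shared a lower depth and a batch, so these values do not tell pairing from batch. The members and all lists were chosen with earlier results of these data known. Alternatives were equal list lengths, a stricter q-value, other flanks, merging within 500 bp, a length-weighted fold, other filters, moderated-variance options, pairs 2 and 3 alone and leaving out each library, with start regions chosen by the controls added after the data were seen.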

Additional observations from a re-analysis of the deposited data

How the results depend on the processing

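The count of member regions lower with NRF2 siRNA was 3, and it was 6 with the replicate block and equal list lengths and 0 to 3 when each library was left out in turn (0 without control siRNA replicate 2, 1 without control siRNA replicate 3 or NRF2 siRNA replicate 2). The count higher was 1, and it was 2 with equal list lengths, with the block and equal list lengths, with the trend and robust options and in pairs 2 and 3 only, 3 with the replicate block, 0 with a q-value of at most 1e-05, with no flank and in regions called in all 6 libraries, and 0 to 1 when a library was left out (1 only without control siRNA replicate 1). With equal list lengths the higher regions were those at HSP90AA1 and DNAJB1, and the CCT5 region was not tested. At start regions the count was 0, and 1 with the replicate block with or without equal list lengths, at HSPA6. With start regions chosen by the control libraries, an alternative added after the data were seen, it was 1, and 2 with the replicate block. Besides HSPA6 and the HSP90AA1 and DNAJB1 regions named above, the block alone changed no other call at member regions. With equal list lengths it added HSPA6 and the regions near HSPA1L and DNAJA1 (adjusted p = 0.0118, 0.0405 and 0.0367). Regions called in all 6 libraries numbered 50 of 77, and 21 of 61 at a q-value of at most 1e-05. The siRNA 28 and 30 difference passed at 0 regions, and at 3 in regions called in all 6 libraries. No difference reversed in sign past the threshold, and the cause of these shifts was not tested. The median difference of the members lay between -0.0668 and 0.0618 over 18 settings, 8 of them below 0.

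Over all regions 1108 were lower and 657 higher. The counts were 2164 and 1868 with the block, 1321 and 1185 with equal list lengths, 2041 and 2151 with both, 1975 and 1719 in pairs 2 and 3, 1499 and 1175 with the trend and robust options, 369 and 341 in regions called in all 6 libraries, 1125 and 427 in regions called in at least 1, and 451 and 263 at the stricter q-value. Without control siRNA replicates 1, 2 and 3 they were 573 and 566, 0 and 0, and 101 and 6. Without NRF2 siRNA replicates 1, 2 and 3 they were 1716 and 882, 122 and 7, and 452 and 234. The precision is limited by 3 libraries a group.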
